A study of Mus musculus with 25 samples.

Results

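The genes described here carry the signal of the T cell receptor (TCR) from the cell surface to the nucleus. They are a list of 39 genes given by symbol, drawn up with earlier results of these data known, and all 39 were found among the 48795 genes of the deposited table and passed the filter on low values (a mean normalized count of at least 10 over all libraries), which 14141 genes passed. By role they fall into 6 kinase and CD45 genes, 12 genes of adaptors, exchange factors and the adhesion receptor CD2, 9 genes of the calcium and NFAT branch, and 12 negative regulators. RNA was sequenced from 25 libraries, each from the thymus of 1 mouse aged 7 to 8 weeks. The control mice (HET) were Wnk1 fl/+ and the WNK1-deficient mice (KO) Wnk1 fl/fl. Both genotypes carried CD2-Cre and lacked *Rag1* (Rag1-/-). The Cre is driven by the human CD2 promoter and the floxed segment is exon 2, so a HET cell keeps 1 functional *Wnk1* allele and is not a wild-type control. Mice received 150 µg of anti-CD3ε antibody intraperitoneally 3, 24 or 48 h before harvest, or no injection (0 h), and Thy1.2+ CD44- thymocytes, labelled as DN3 and DN4 cells, were sorted. There were 3 mice per genotype and time, and 4 KO mice at 0 h. All came from 1 experiment.

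When the TCR or its immature form, the pre-TCR, is engaged, the kinase LCK phosphorylates the CD3 chains, ZAP70 or SYK binds them, and these kinases phosphorylate the scaffolds LAT and SLP76. The assembled complex activates phospholipase C gamma, which opens a calcium, calcineurin and NFAT branch and a diacylglycerol branch through RASGRP1 and protein kinase C theta, while phosphatases, ubiquitin ligases and inhibitory receptors limit the signal. Thymocytes without RAG1 cannot rearrange a TCRβ chain and stop at the DN3 stage, and an antibody to CD3ε crosslinks the CD3 complexes at their surface in place of a pre-TCR signal.

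Recovered reads per library, in units of 1e6 reads, ranged from 22.5 to 57.3 with a median of 36.6, and 17867 to 20337 genes were above 0. Values are normalized counts, that is, reads per gene divided by a size factor for the library. They are not divided by gene length, so they compare libraries and not genes. Changes are differences of log2(value + 1) with their standard error (SE), and a gene was called at a Benjamini-Hochberg adjusted p of at most 0.05 in limma over the 14141 genes. Time coincided with sex, since the libraries of 0 and 48 h expressed *Xist* (10918 to 45584) and those of 3 and 24 h the Y-linked genes (summed value 3704 to 7577). At 0 h all HET libraries were in sequencing lane 1 and all KO libraries in lane 2, so that lane and genotype cannot be told apart at that time. Of 3 libraries known from earlier work to stand apart, HET 3 h replicate 3 held *Cd4*, *Cd8a*, *Cd8b1* and *Trac* at a summed value of 27562 (413 to 1100 in the other 3 h libraries). HET 24 h replicate 3 kept *Il2ra*, the DN3 marker CD25, at 30251 (5645 and 8005 in the other replicates), and KO 48 h replicate 3 kept *Ptcra*, the pre-TCR alpha chain, at 574 against 18.2 and 22.5. Of the genes of the sort, *Thy1* ranged from 10980.1 to 68161 and *Cd44* from 16.9 to 741, with the 3 KO libraries of 24 h lowest in *Thy1* (10980.1, 11544 and 17950.1) and highest in *Cd44* (663, 741 and 689), whose part in the results of that time was not tested. In RNA from such a sort, fewer cells of one stage and less RNA per cell cannot be told apart. *Wnk1* itself was lower in KO at every time, with log2 changes of -0.83, -0.99, -0.95 and -1.05 and no overlap between genotypes, as a gene count that still includes the exons outside the floxed segment. All 4 changes were called, but the call at 0 h was lost without HET replicate 3 (-0.69) or with lane as a covariate (-0.24), and that at 3 h without HET replicate 2 (-0.70).

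Between genotypes, 12 members were called at 0 h (8 higher and 4 lower in KO), 3 at 3 h (1 higher, 2 lower), 6 at 24 h (4 higher, 2 lower) and 8 at 48 h (1 higher, 7 lower). Among all genes tested, 22.1% were called at 0 h (11% higher, 11.1% lower), 9.18% at 3 h (5.75% and 3.43%), 12.5% at 24 h (7.03% and 5.45%) and 13.1% at 48 h (6.13% and 6.95%). Against these shares, 30.8%, 7.69%, 15.4% and 20.5% of the members were called, so that those of 3 and 24 h were near the background. The median log2 change of the members was 0.17 at 0 h, -0.02 at 3 h, 0.11 at 24 h and -0.35 at 48 h, and the median of all genes was between -0.02 and 0.00 at each time. *Ppp3ca*, which encodes the calcineurin A alpha catalytic subunit, was the only member called at all 4 times, and *Lck*, *Cblb* and *Ubash3a* were called at 3. A further 3 members were called at 2 times, 10 at 1 time and 22 at none. Markers of cell stage moved with genotype as well. At 0 h the T lineage markers *Cd3d*, *Cd3e*, *Cd3g* and *Notch3* were called lower in KO and *Tcf7* higher (5 of 12 listed, median log2 change -0.65), and the summed list was 510923 to 555063 in HET and 314403 to 374025 in KO. At 24 h *Thy1*, *Cd247*, *Ptcra* and *Notch3* were called lower. The 4 NK and innate lymphoid markers all had positive changes at 24 h (median 2.40, *Ncr1* called higher). Their sum was low, at 132 to 541 in HET and 664 to 987 in KO, without overlap. At 48 h *Cd4* and *Trac*, 2 of the 4 later-stage markers, were called lower in KO (median of the 4 -2.30), and their sum was 2075 to 4845 in HET and 235 to 967 in KO, without overlap. The part of these marker differences in the members' changes was not tested. With sequencing lane as a covariate only 1 of the 12 calls at 0 h, *Ppp3ca*, remained, while 4 members were called at 3 h, 7 at 24 h and 4 at 48 h. Lanes 1 and 2 shared a group only in HET at 48 h, with replicate 3 in lane 1 and replicates 1 and 2 in lane 2. Lane-adjusted genotype changes at 0 h rest on those libraries, and no conclusion on lane is drawn from them.

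**Figure D1:**
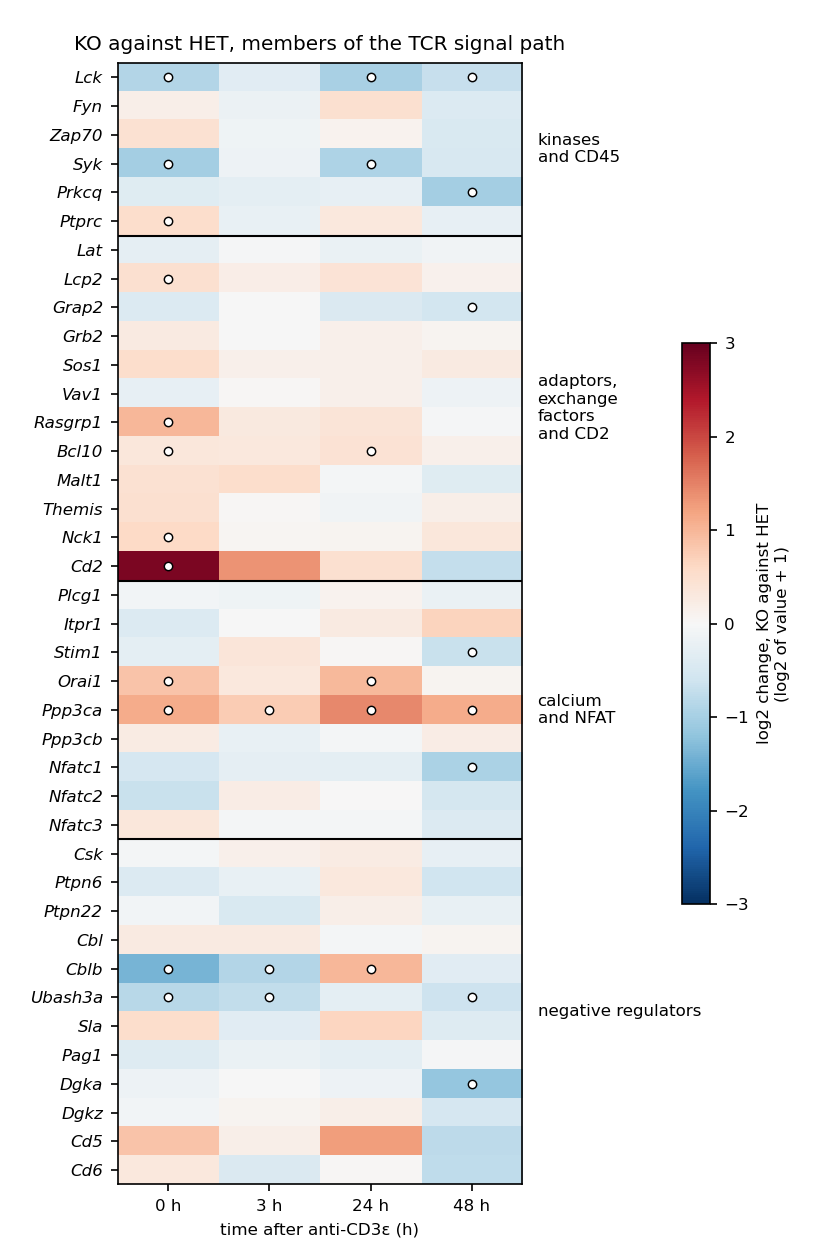
Log2 change of KO against HET for the 39 members (rows, grouped by role) at 0, 3, 24 and 48 h after anti-CD3ε (columns). Red is higher and blue lower in KO, and an open circle marks an adjusted p of at most 0.05. *Ppp3ca* carries a circle in each column, and the 48 h column holds 7 blue calls.

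Within 3 h of anti-CD3ε, 16 members rose and 6 fell in HET, and 15 rose and 3 fell in KO. Over all genes tested, 37% were called in HET (18.4% up, 18.5% down) and 24.7% in KO (13.3% and 11.3%). At 24 h against 0 h the counts were 17 up and 8 down in HET, where 33.9% of all genes were called (17% up, 16.9% down), and 22 up and 7 down in KO, where 30.4% were called (16% and 14.3%). At 48 h they were 25 up and 5 down in HET, with 42.4% of all genes called (21.6% and 20.8%), and 24 up and 2 down in KO, with 26.8% called (14.3% and 12.5%). The members called were thus more often up than down, whereas all genes were near even. This lean was not particular to the members. Of 79 other genes of the pathway, 27 rose and 10 fell at 3 h in HET, 30 and 9 at 24 h, and 48 and 6 at 48 h. In KO the counts of these other genes were 17 and 5, 31 and 8, and 31 and 3. The members' median log2 change against 0 h was 0.36, 0.30 and 0.89 at 3, 24 and 48 h in HET and 0.31, 0.63 and 0.72 in KO. A group of 10 members rose at all 3 times in both genotypes, namely *Zap70*, *Ptprc*, *Lcp2*, *Rasgrp1*, *Cd2*, *Nfatc1*, *Ptpn6*, *Sla*, *Cd5* and *Cd6*. *Lck* and *Syk* fell at all 3 times in HET, no member fell at all 3 in KO, and *Bcl10* and *Ppp3cb* were called at no time in either genotype. The comparisons of a genotype share its 0 h libraries, and how many of all genes show such joint patterns was not counted. With lane as a covariate the KO counts dropped to 3, 15 and 11 at 3, 24 and 48 h, while the HET counts were 18, 21 and 27. Within a genotype no library of 3 or 24 h shared a lane with one of 0 h, and in KO none of 48 h did. Lane and time cannot be told apart in those comparisons. Of 190 calls over time, 147 were kept in every fit without 1 library and 61 were lost with lane.

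**Figure D2:**
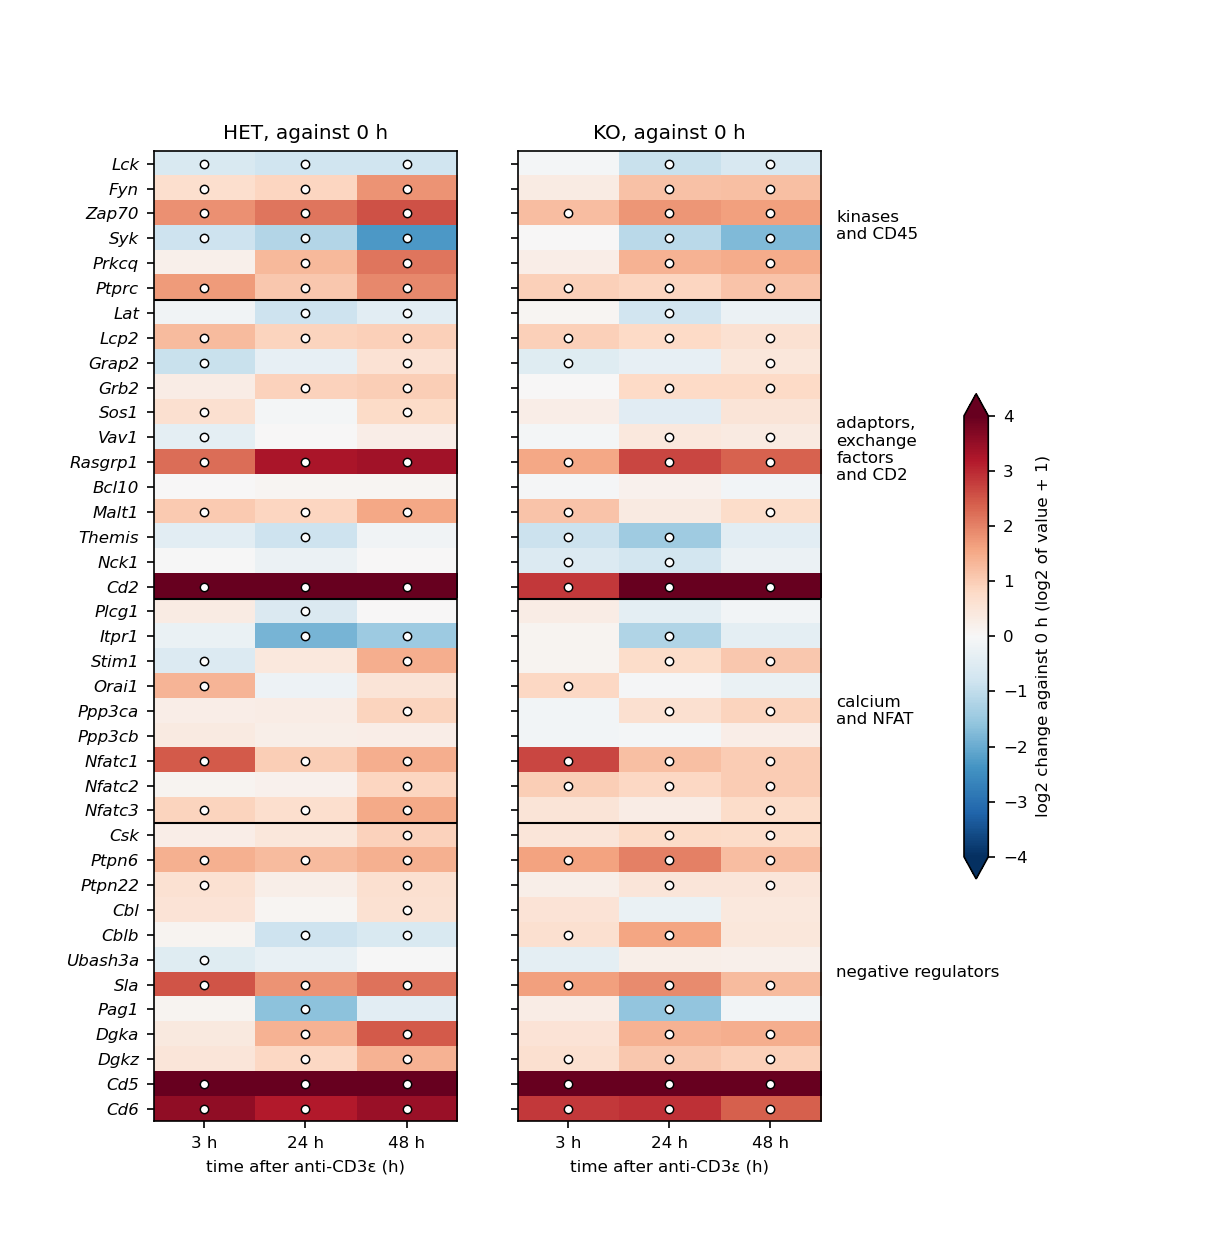
Log2 change against 0 h of the 39 members (rows, grouped by role) at 3, 24 and 48 h in HET (left) and KO (right). Red is higher and blue lower than at 0 h, a circle marks an adjusted p of at most 0.05, and the colours stop at 4, which *Cd2* and *Cd5* passed. *Lck* and *Syk* are blue with a circle in all 3 HET columns.

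Lane as a covariate changed many of these calls. In KO the calls it left were *Nfatc1*, *Ptpn6* and *Cd6* at 3 h, and *Fyn*, *Zap70*, *Syk*, *Prkcq*, *Grb2*, *Rasgrp1*, *Cd2*, *Ptpn6*, *Dgka*, *Cd5* and *Cd6* at 24 and 48 h, with *Itpr1*, *Cblb*, *Sla* and *Pag1* at 24 h only, so that every other KO call against 0 h was lost. In HET it ended the calls of *Lck*, *Grap2*, *Sos1*, *Vav1*, *Stim1*, *Orai1* and *Ubash3a* at 3 h, those of *Lck*, *Lat*, *Themis*, *Plcg1*, *Nfatc3*, *Cblb* and *Pag1* at 24 h and those of *Cbl*, *Cblb* and *Lat* at 48 h. Among the calls against 0 h that it kept, the values it moved by over 1.5 times on the fold scale were these. It moved *Ptpn22* in HET to 1.23 at 3 h, *Fyn* to 1.58 at 3 h and 1.66 at 24 h, *Malt1* to 1.66 and 1.52, *Nfatc1* to 3.12 and 1.69, *Cd5* to 6.51 and 4.89 and *Cd2* to 5.42 and 8.64. *Syk* and *Cd6* in HET became -1.56 and 4.23 at 3 h, and *Prkcq* and *Dgka* 1.89 and 2.10 at 24 h. In KO at 24 h *Syk* became -2.001, *Zap70* 2.48, *Fyn* 1.79, *Cd2* 6.75, *Cd5* 6.03, *Cd6* 3.78 and *Ptpn6* 3.01. *Ptpn6* in KO became 2.57 at 3 h and 1.86 at 48 h, *Nfatc1* in KO 3.46 at 3 h and *Cd5* in KO 5.75 at 48 h. The directions of these kept changes were the same as without lane, while the lost changes of *Stim1* and *Ubash3a* in HET at 3 h and of *Cblb* in HET at 24 h turned in sign. No call from 3 to 24 h was lost with it. Lanes 1 and 2 were joined to lanes 3 and 4 only by KO at 48 h. There replicates 1 and 2 were in lane 1, and replicate 3, which stands apart, was in lane 3. Lane-adjusted changes from 0 h to 3 or 24 h therefore rest on that 1 library, and no conclusion on lane is drawn from them. HET 3 h replicate 3 (lane 4) and HET 24 h replicate 3 (lane 3) were likewise alone of their groups in their lanes. Fits with lane and fits without the 3 libraries that stand apart are therefore not independent checks.

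Of the 6 kinase and CD45 genes, 3 were called between genotypes at 0 h, none at 3 h and 2 each at 24 and 48 h. These are 50%, 0%, 33.3% and 33.3% of the group, against 22.1%, 9.18%, 12.5% and 13.1% of all genes. *Lck*, which starts the cascade, was lower in KO at 0, 24 and 48 h. *Lck* lies at chr4:129548344-129573641 (GRCm38.p6). At 0 h the HET libraries held 94937, 87228 and 71882 and the KO libraries 41079.9, 44447, 53417 and 45434. Every KO library was below every HET library, and the log2 change was -0.87 (SE 0.16, adjusted p = 0.00064). At 3 h the values were 64967, 52031 and 48353 in HET and 36879, 44771 and 48146 in KO, a change of -0.35 that was not called (adjusted p = 0.23). At 24 h HET held 43474, 53391 and 48425 and KO 23343, 24086 and 26628, a log2 change of -0.97 (SE 0.17, adjusted p = 0.000841). The genotypes were apart within both lanes used at 24 h, with 1 HET and 2 KO libraries in lane 3 and 2 HET and 1 KO library in lane 4. The HET library in lane 3 was replicate 3, which kept *Il2ra*. The call was kept with lane as a covariate. At 48 h the values were 43728, 57338 and 43864 in HET and 23834, 36922 and 29361 in KO, and the log2 change was -0.70 (SE 0.17, adjusted p = 0.011). The groups did not overlap, but the call at 48 h was lost without HET replicate 2 (-0.57, adjusted p = 0.0671), without KO replicate 1 (-0.54, adjusted p = 0.06) or with lane as a covariate (-0.56, adjusted p = 0.278). *Lck* fell after anti-CD3ε in HET, by 0.62 at 3 h, 0.80 at 24 h and 0.81 at 48 h on the log2 scale, and in KO by 0.90 at 24 h and 0.63 at 48 h, the last lost without KO 48 h replicate 1 (-0.48).

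The RefSeq table used here (GRCm38.p6) held a 250-base window before a start site for 31 of the 39 members, 47 windows in all. Not analysed here were the windows of *Pag1*, *Sla*, *Nfatc1*, *Cd2*, *Ppp3ca*, *Malt1*, *Itpr1* and *Cd6*. The windows of *Lck*, lower in KO at 3 of the 4 times, the first window of *Zap70* and the window of *Rasgrp1* are shown here from 5′ to 3′ on the gene's strand. *Zap70* and *Rasgrp1* were both higher than at 0 h at every later time. *Lck* has a distal and a proximal start, which a count per gene does not separate.
Lck, distal start, chr4:129573642-129573891, minus strand: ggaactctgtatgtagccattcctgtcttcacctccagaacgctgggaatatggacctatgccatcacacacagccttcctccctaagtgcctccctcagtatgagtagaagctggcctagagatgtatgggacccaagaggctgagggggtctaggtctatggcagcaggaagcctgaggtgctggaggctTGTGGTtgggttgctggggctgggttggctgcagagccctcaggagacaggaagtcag
Lck, proximal start, chr4:129558373-129558622, minus strand: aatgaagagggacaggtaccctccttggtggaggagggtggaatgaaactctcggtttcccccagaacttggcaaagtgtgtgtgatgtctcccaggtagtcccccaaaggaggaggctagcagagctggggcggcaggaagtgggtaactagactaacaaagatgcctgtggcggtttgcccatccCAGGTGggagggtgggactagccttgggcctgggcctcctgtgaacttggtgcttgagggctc
Zap70, first start, chr1:36761548-36761797, plus strand: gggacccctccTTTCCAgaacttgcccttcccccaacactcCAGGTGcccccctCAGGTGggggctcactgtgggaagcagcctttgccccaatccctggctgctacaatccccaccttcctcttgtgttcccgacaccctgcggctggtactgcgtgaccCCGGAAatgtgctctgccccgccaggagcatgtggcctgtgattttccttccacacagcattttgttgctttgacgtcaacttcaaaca
Rasgrp1, chr2:117342878-117343127, minus strand: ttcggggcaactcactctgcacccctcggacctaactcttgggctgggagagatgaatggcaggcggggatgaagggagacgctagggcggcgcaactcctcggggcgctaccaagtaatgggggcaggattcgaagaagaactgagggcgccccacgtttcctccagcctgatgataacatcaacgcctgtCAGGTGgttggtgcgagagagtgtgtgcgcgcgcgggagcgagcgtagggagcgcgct
Capitals mark matches on either strand to 5 short motifs named for the factor families that bind such letters, namely ETS (CCGGAA), RUNX (TGTGGT), E-box (CAGNTG), NFAT (TGGAAA) and AP-1 (TGANTCA). The distal *Lck* window holds 1 RUNX match and the proximal window 1 E-box match, and the *Rasgrp1* window 1 E-box match. The first *Zap70* window holds 1 ETS, 2 E-box and 1 NFAT match. Its further windows, chr1:36764265-36764514 and chr1:36778734-36778983, are not shown and hold 1 RUNX and 1 E-box match, respectively. Of the members' 47 windows, 8.51% held the ETS letters, 8.51% the RUNX, 51.1% the E-box, 14.9% the NFAT and 0% the AP-1 letters, against 12%, 14%, 44.8%, 18.6% and 6.75% of all 32851 windows of that length. A match is a match of letters only.

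*Syk*, the kinase that works beside ZAP70 in DN thymocytes, was lower in KO at 0 and 24 h. At 0 h HET held 3597, 3821 and 4093 and KO 1409, 2354, 2381 and 1656, with no overlap and a log2 change of -1.01 (SE 0.25, adjusted p = 0.00641). At 24 h HET held 1234, 1813 and 2219 and KO 1001, 894 and 807, again without overlap, and the change was -0.93 (SE 0.27, adjusted p = 0.0265). The call at 24 h was lost without HET replicate 2 (-0.88, adjusted p = 0.0579), HET replicate 3 (-0.74, 0.126), KO replicate 2 (-0.92, 0.0782) or KO replicate 3 (-0.85, 0.0939), and kept with lane as a covariate (-1.11, 0.00126), under which the call at 0 h was lost (-0.83, 0.159). At 3 and 48 h the log2 changes were -0.16 and -0.47 and not called. *Syk* is also used by myeloid and B cells. At 0 h the summed myeloid markers were 2009.6 to 2529.8 in HET and 637 to 1353 in KO (2 of the 7 tested, *Lyz2* and *Itgam*, called lower in KO), while *Ms4a1* and *Pax5*, which mark B cells, were at most 1.43 in any library. *Cd79b*, which encodes a chain of the B cell receptor complex, was lower in KO at 0 h, at 2604, 2539 and 2219 in HET and 804, 1098, 1160.1 and 823 in KO (-1.35, SE 0.21, adjusted p = 0.00011). *Cd79b* was also lower in KO at 3, 24 and 48 h (-0.88, -1.19 and -1.69), whereas at 24 h 6 of the 7 tested myeloid markers had positive changes (median 0.72, *Itgax* called higher). The part of these cells in the *Syk* values was not tested. With time *Syk* fell in HET by 0.82, 1.17 and 2.29 on the log2 scale at 3, 24 and 48 h, and in KO by 1.08 at 24 h and 1.75 at 48 h. The HET call at 3 h was lost without HET 0 h replicate 3 (-0.77) or HET 3 h replicate 3 (-0.53), and without the 3 libraries that stand apart.

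*Zap70*, the kinase that takes over from SYK in later thymocytes, rose at each time in both genotypes and was not called between them. In HET it went from 1884, 2100.0 and 1711 at 0 h to 9275, 14947 and 9972 at 48 h, a log2 change of 2.56 (SE 0.28, adjusted p = 3.36e-07). In KO it went from 1986, 2743, 3085 and 2738 to 6922, 12584 and 6267, a change of 1.65 (SE 0.26, adjusted p = 7.99e-05). The ratio of the *Zap70* to the *Syk* value in a library, used only to compare libraries, had a median of 0.524, 2.91, 6.66 and 12.3 at 0, 3, 24 and 48 h in HET and 1.35, 3.16, 10.2 and 12.8 in KO. At 0 h the ratios of the genotypes did not overlap (0.418 to 0.55 in HET, 1.17 to 1.65 in KO) and at 24 h they did not either (2.38 to 7.24 and 9.11 to 10.6, the lowest in HET replicate 3), whereas they overlapped at 3 and 48 h. No test was run on the ratio.

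**Figure D3:**
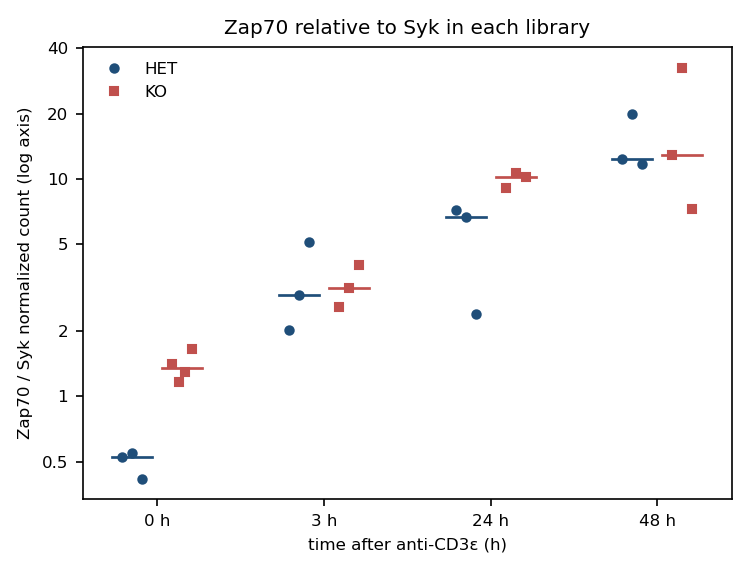
Ratio of the Zap70 to the Syk normalized count in each library on a log axis, by time after anti-CD3ε, for HET (circles) and KO (squares). Horizontal bars are group medians. The HET medians go from 0.524 at 0 h to 12.3 at 48 h, and the KO libraries lie above the HET libraries at 0 h (1.17 to 1.65 against 0.418 to 0.55).

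*Prkcq*, which encodes protein kinase C theta, was called between genotypes only at 48 h. Its values there were 17498, 19009.7 and 23333 in HET and 10516, 13530.5 and 6639 in KO, so that the lowest HET library was above the highest KO library. The lowest KO library was replicate 3, which kept *Ptcra*. The log2 change was -1.01 (SE 0.21, adjusted p = 0.00378), and it was -0.73 without the 3 libraries that stand apart (adjusted p = 0.0013). *Prkcq* rose from 0 h to 48 h in both genotypes, by 2.13 in HET and 1.48 in KO, and the difference between these 2 rises was -0.65 (adjusted p = 0.343), not called. *Ptprc*, the CD45 phosphatase that keeps LCK active, was higher in KO at 0 h (9907, 11183 and 13264 in HET, 18874, 16478, 13838 and 16549.6 in KO), with a log2 change of 0.52 (SE 0.18, adjusted p = 0.0432). The groups did not overlap, but the call was lost without any 1 of 5 of the 7 libraries (0.42 to 0.52, HET replicates 1 and 2 and KO replicates 1, 2 and 4). It was also lost without a filter on low values, with lane as a covariate and with the replicate block. *Fyn*, the other SRC-family kinase of T cells, was called between genotypes at no time. It was called higher than at 0 h at 24 and 48 h in both genotypes (0.86 and 1.79 in HET, 1.17 at 24 h in KO). Its call at 3 h in HET (0.66) was lost in 5 of the 6 fits without 1 library, that is, all but the fit without HET 3 h replicate 1 (lowest value 0.49, without HET 3 h replicate 3), and without a filter on low values.

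**Figure D4:**
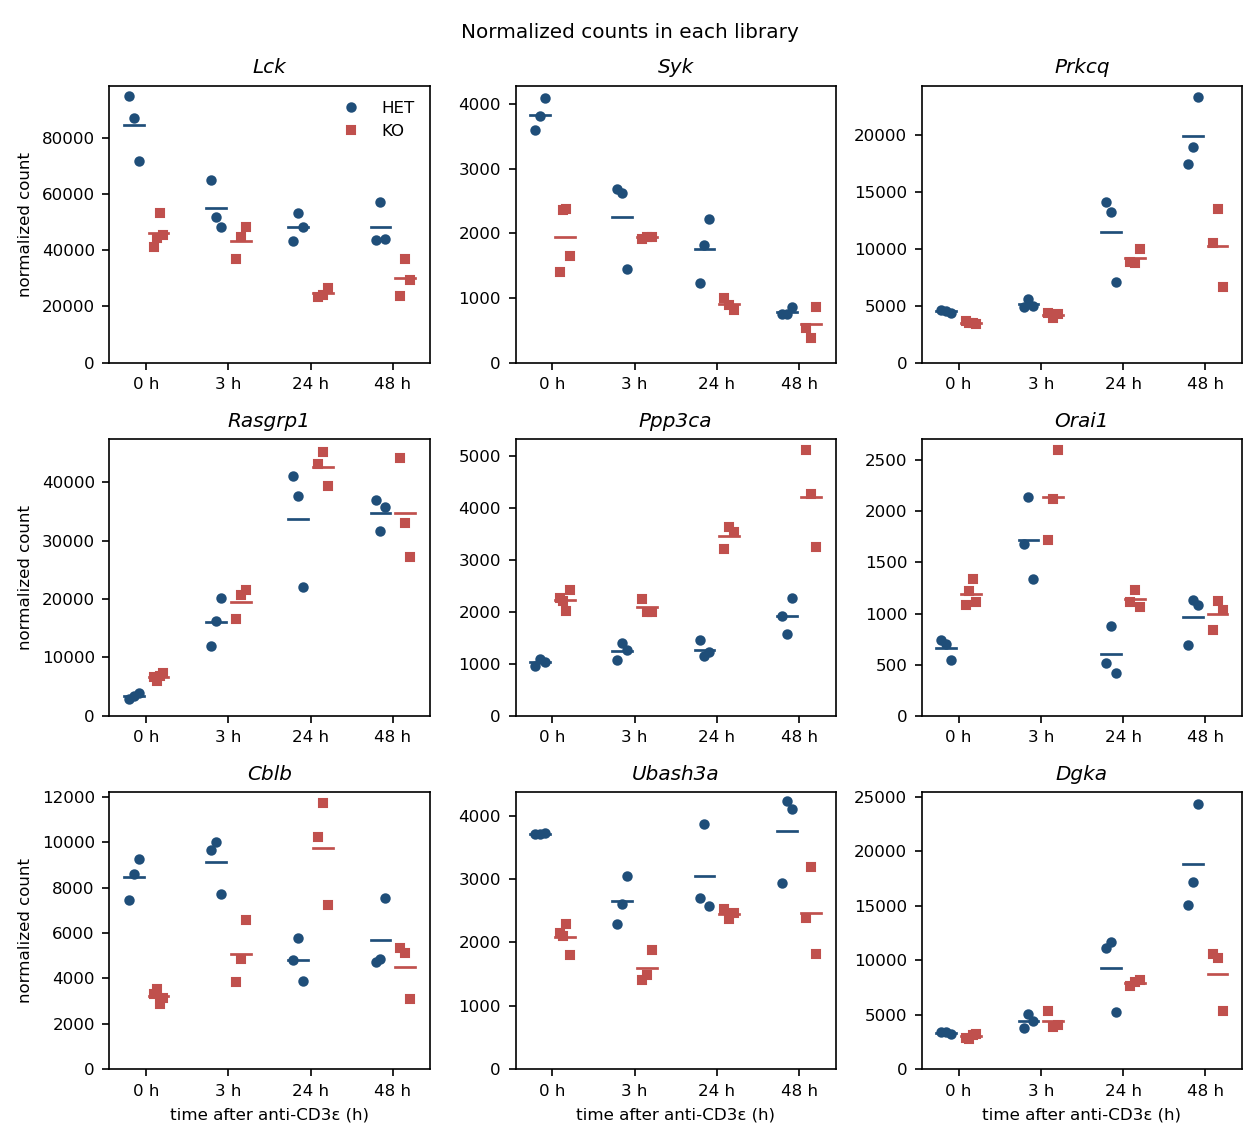
Normalized counts of 9 members in each library by time after anti-CD3ε, for HET (circles) and KO (squares). Horizontal bars are group means and each vertical axis starts at 0. The KO libraries of *Ppp3ca* lie above the HET libraries at every time, and those of *Cblb* lie below at 0 and 3 h and above at 24 h.

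Of the 12 adaptor, exchange factor and CD2 genes, 5 were higher in KO at 0 h, none was called at 3 h, 1 was higher at 24 h and 1 lower at 48 h. These are 41.7%, 0%, 8.33% and 8.33% of the group, against 22.1%, 9.18%, 12.5% and 13.1% of all genes. *Rasgrp1*, a RAS exchange factor switched on by diacylglycerol, held 2923, 3339.5 and 3851 in HET and 6721, 5894, 6835 and 7389 in KO at 0 h. The groups did not overlap and the log2 change was 1.00 (SE 0.20, adjusted p = 0.00132), which stayed called in each of the 7 fits without 1 library. *Rasgrp1* then rose to 41046, 37688 and 22138 in HET and 43063, 45232 and 39318 in KO at 24 h, with HET replicate 3, the library that kept *Il2ra*, the lowest. Those rises were 3.28 (SE 0.21, adjusted p = 5.18e-10) in HET and 2.67 (SE 0.20, adjusted p = 5.19e-09) in KO on the log2 scale.

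*Cd2*, an adhesion receptor that brings LCK to the contact site, had the largest genotype change of any member at 0 h and the largest rise at 24 and 48 h. At 0 h it was low in HET, at 14.1, 32.7 and 32.8, and at 335, 196, 125 and 135 in KO, a log2 change of 2.83 (SE 0.66, adjusted p = 0.00447) with no overlap. The Cre transgene carried by every group uses the promoter of human CD2, and the value here is that of the mouse gene. By 48 h *Cd2* stood at 9378, 16772 and 13155 in HET and 7841, 16247 and 3607 in KO, overlapping ranges, after log2 rises of 8.95 (SE 0.71, adjusted p = 6.6e-09) and 5.39 (SE 0.66, adjusted p = 6.74e-06). The difference between those rises was -3.55 (SE 0.97, adjusted p = 0.0743) and was not called by limma or edgeR but was called by DESeq2. At 3 h the HET value rested on the library with later-stage markers, replicate 3, at 2148 against 198 and 303, and the rise of 4.30 became 3.25 without it and 4.97 without replicate 1.

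The other calls of this group were small. *Lcp2*, which encodes the scaffold SLP76, held 7339, 9730.3 and 6825 in HET and 11934, 11513, 10829.5 and 10089 in KO at 0 h, a log2 change of 0.49 (SE 0.16, adjusted p = 0.0323). *Nck1*, an adaptor toward the actin cytoskeleton, held 1262, 1639 and 1451 in HET and 2563, 2239.8, 1644 and 2340.4 in KO, a change of 0.59 (SE 0.18, adjusted p = 0.0239). The groups of both genes were apart, those of *Nck1* by a narrow gap. The call of *Lcp2* was lost in 4 of the 7 fits without 1 library (0.39 to 0.47, HET replicates 1 and 3 and KO replicates 1 and 2), and that of *Nck1* in 5 (0.49 to 0.59, the same libraries and KO replicate 4). Without a filter on low values the call of *Lcp2* was also lost, and with the replicate block that of *Nck1*. *Bcl10*, which links protein kinase C to NF-kB, was higher in KO at 0 and 24 h. At 0 h HET held 1746, 1682 and 1344 and KO 2184, 2020.1, 2001 and 1855, a log2 change of 0.35 (SE 0.12, adjusted p = 0.0461), and at 24 h HET held 1942, 1747 and 1390.1 and KO 2234, 2522 and 2064, a change of 0.43 (SE 0.13, adjusted p = 0.0332). The groups were apart at both times, but the call at 0 h was lost without any 1 of the 7 libraries (0.23 to 0.42) and that at 24 h without HET replicate 3 (0.30), KO replicate 1 (0.44) or KO replicate 2 (0.36). Both calls of *Bcl10* were lost without a filter on low values, and that at 24 h also without the 3 libraries that stand apart. *Grap2*, which encodes GADS, the partner of SLP76, held 9268, 10023 and 13117 in HET and 8222, 7786 and 6090.0 in KO at 48 h, a log2 change of -0.55 (SE 0.17, adjusted p = 0.0372). Its groups were apart, and the call was lost without HET replicate 2 (-0.59), HET replicate 3 (-0.40) or KO replicate 3 (-0.42). It was also lost without a filter on low values, with a common total, with the replicate block and without the 3 libraries that stand apart.

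*Lat*, *Grb2*, *Sos1*, *Vav1*, *Malt1* and *Themis* were not called between genotypes at any time. *Lat*, the membrane scaffold, fell against 0 h at 24 h by 0.84 in HET and 0.76 in KO, and *Grb2* rose at 24 h by 0.91 and 0.78. *Themis*, a thymocyte adaptor of the LAT complex, had a change of -0.83 at 24 h in HET, whose call was lost in 4 of the 6 fits without 1 library (the 3 HET 0 h replicates and HET 24 h replicate 2, where it was -0.52), without a filter, with lane (-1.50) and with the replicate block. In KO it fell by 1.41 at 24 h, which was called without lane but not with it (-2.31, adjusted p = 0.061).

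In the calcium and NFAT branch, 2 of 9 members were called at 0 h, 1 at 3 h, 2 at 24 h and 3 at 48 h. These are 22.2%, 11.1%, 22.2% and 33.3% of the branch, against 22.1%, 9.18%, 12.5% and 13.1% of all genes. *Ppp3ca* (chr3:136669714-136937727) was higher in KO throughout. At 0 h HET held 956, 1094 and 1045 and KO 2277, 2219, 2023 and 2414, a log2 change of 1.11 (SE 0.14, adjusted p = 1.61e-05). At 3 h the values were 1072, 1394 and 1266 in HET and 2251, 2006 and 1999 in KO, a change of 0.75 (SE 0.15, adjusted p = 0.00314). Every KO library was above every HET library at these and the later times. At 24 h HET held 1459, 1143 and 1222 and KO 3206, 3627 and 3536 (1.44, SE 0.15, adjusted p = 5.39e-06), and at 48 h HET held 1923, 1582 and 2272 and KO 5115, 4265 and 3252 (1.12, SE 0.15, adjusted p = 8.88e-05). Each of the 4 calls was kept in every fit without 1 library and under every alternative run. The second calcineurin A gene, *Ppp3cb*, had log2 changes of 0.25, -0.23, -0.06 and 0.22 and was called at no time.

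*Orai1*, the pore of the store-operated calcium channel, was higher in KO at 0 and 24 h. At 0 h HET held 737, 703 and 546 and KO 1080.3, 1223, 1337 and 1111, a log2 change of 0.85 (SE 0.22, adjusted p = 0.00912), and at 24 h HET held 515, 877 and 423 and KO 1118, 1229 and 1067, a change of 0.98 (SE 0.24, adjusted p = 0.00954). The groups were apart at both times. Without HET replicate 3 the call at 24 h was lost (0.76, adjusted p = 0.0625), and with lane as a covariate it was kept (0.98). That 24 h call was also lost without the 3 libraries that stand apart. *Orai1* rose at 3 h in both genotypes, by 1.36 in HET and 0.83 in KO (the latter lost without KO 3 h replicate 3, 0.69), and at 24 h its change against 0 h was -0.19 and -0.06, not called. *Stim1*, the calcium sensor that opens ORAI1, was lower in KO at 48 h (6831, 9578 and 9539 in HET, 5062, 7912 and 3835 in KO, log2 change -0.67, SE 0.20, adjusted p = 0.0341), with overlapping groups and a call lost in 4 of the 6 fits without 1 library (-0.63 to -0.43, HET replicates 2 and 3 and KO replicates 1 and 3) and with edgeR. That call was also lost without a filter on low values, with lane as a covariate and without the 3 libraries that stand apart.

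*Nfatc1*, the NFAT member that TCR signals induce, showed an early peak. It went from 4592, 3994 and 4708 at 0 h to 28807, 31489 and 15664 at 3 h in HET and from 2772, 3549, 3251 and 2918 to 15187, 20075 and 26032 in KO, log2 rises of 2.45 (SE 0.28, adjusted p = 1.29e-06) and 2.68 (SE 0.26, adjusted p = 2.79e-07). The lowest HET value at 3 h was in replicate 3, the library with later-stage markers. From 3 to 24 h *Nfatc1* fell by 1.47 in HET and 1.49 in KO. At 48 h it was 10149.7, 14446 and 11985 in HET and 6782, 7745 and 4716 in KO, apart, with a log2 change of -0.94 (SE 0.28, adjusted p = 0.0295) that was lost in 4 of the 6 fits without 1 library (weakest at -0.74, HET replicates 2 and 3 and KO replicates 1 and 3). That call was also lost without a filter on low values and with lane as a covariate. *Itpr1*, the receptor that releases calcium from the endoplasmic reticulum, fell at 24 h in both genotypes (-1.87, SE 0.25, adjusted p = 9.69e-06 in HET, -1.19, SE 0.24, adjusted p = 0.000556 in KO) and was not called between them. *Plcg1*, *Nfatc2* and *Nfatc3* were not called between genotypes either.

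Among the 12 negative regulators, 2 were lower in KO at 0 h, the same 2 at 3 h, 1 was higher at 24 h and 2 were lower at 48 h, or 16.7%, 16.7%, 8.33% and 16.7% of the group against 22.1%, 9.18%, 12.5% and 13.1% of all genes. *Cblb*, a ubiquitin ligase that restrains TCR signals (chr16:52031230-52208047), changed direction. At 0 h HET held 7468, 8611 and 9280.2 and KO 3331, 3520.2, 2871 and 3145 (log2 change -1.39, SE 0.22, adjusted p = 0.000145), and at 3 h HET held 9674, 10004 and 7705 and KO 3859, 4834 and 6552 (-0.87, SE 0.23, adjusted p = 0.021). Every KO library was below every HET library at both times, and with lane as a covariate the change at 0 h was -0.74 (adjusted p = 0.195). At 24 h the order was turned, with 4798, 5761 and 3899 in HET and 10236, 11749 and 7227 in KO and a log2 change of 1.00 (SE 0.23, adjusted p = 0.00709). At 48 h the groups overlapped (4728, 4862 and 7526 in HET, 5343, 5121 and 3078 in KO, -0.35). Between 0 and 24 h *Cblb* fell by 0.82 in HET and rose by 1.57 in KO.

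*Cblb* at 24 h was the only member whose change over time differed between genotypes by the interaction test (log2 difference 2.40, SE 0.32, adjusted p = 0.000789). Over all genes tested 0.658% were called in that interaction. It was kept in each of the 13 fits without 1 library (2.25 to 2.60) and lost with lane as a covariate (1.69, adjusted p = 0.143), where the HET change from 0 to 24 h was 0.06. The higher value of *Cblb* in KO at 24 h itself was kept with lane as a covariate (0.95, adjusted p = 0.00347) and seen within both lanes. The only HET library in lane 3 at 24 h was replicate 3, which kept *Il2ra*. The call at 24 h was lost without KO replicate 2 (0.85, adjusted p = 0.052). The lower value at 3 h was lost without HET replicate 1 (-0.82), HET replicate 2 (-0.80), KO replicate 1 (-0.69) or KO replicate 2 (-0.85). At 3 h no member was called in the interaction by limma, edgeR or DESeq2 (7 members had an unadjusted p under 0.05 in limma, and 0.0707% of all genes were called). At 48 h none was called by limma or edgeR (13 at an unadjusted p under 0.05, 1.36% of all genes called), and DESeq2 called 3, *Rasgrp1*, *Cd2* and *Cblb*. Without the 3 libraries that stand apart limma called the same 3 genes at 24 and at 48 h. Without KO 48 h replicate 1 it called 2 members at 48 h, *Rasgrp1* and *Malt1*, and without KO 48 h replicate 2 or replicate 3 it called 1, *Cd2* and *Cblb* respectively.

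*Ubash3a*, a suppressor of TCR signals that acts beside CBL proteins, was lower in KO at 0, 3 and 48 h. At 0 h HET held 3712, 3710.1 and 3724 and KO 2147, 2093, 2292 and 1803 (-0.84, SE 0.17, adjusted p = 0.00181), and at 3 h HET held 2289, 2600.5 and 3048 and KO 1403, 1490.5 and 1874 (-0.74, SE 0.19, adjusted p = 0.0146), apart at both times. At 48 h the groups overlapped (2941, 4225 and 4099.9 in HET, 2391, 3191 and 1824 in KO, -0.62, SE 0.19, adjusted p = 0.0315). The call at 3 h was lost in 3 of 6 fits without 1 library (-0.70 to -0.63, HET replicate 3 and KO replicates 1 and 2) and that at 48 h in 4 of 6 (-0.62 to -0.42, HET replicates 2 and 3 and KO replicates 1 and 3). The 48 h call was also lost without a filter on low values, with lane as a covariate and without the 3 libraries that stand apart. *Dgka*, a diacylglycerol kinase that removes the messenger of the RASGRP1 branch, was lower in KO at 48 h, at 10596, 10150.0 and 5288 against 15074, 17160.5 and 24302 in HET. The groups were apart, with KO replicate 3 again the lowest, the log2 change was -1.16 (SE 0.26, adjusted p = 0.0058), and it was -0.83 (adjusted p = 0.00412) without the 3 libraries that stand apart. *Dgka* rose from 0 to 48 h by 2.47 in HET and 1.46 in KO.

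The remaining 9 negative regulators, the kinase gene *Csk*, the phosphatases *Ptpn6* (SHP1) and *Ptpn22*, the ligase *Cbl*, the adaptors *Sla* and *Pag1*, *Dgkz* and the receptors *Cd5* and *Cd6*, were called between genotypes at no time. *Cd5* had the widest error of any member, with log2 changes of 0.85, 0.17, 1.25 and -0.79. It rose from 122, 53.8 and 22.2 in HET and 209, 139, 61.9 and 47.2 in KO at 0 h to 1401, 5768 and 1759 in HET and 1113, 7847 and 2297 in KO at 3 h, log2 rises of 5.49 (SE 0.81, adjusted p = 3.14e-05) and 4.81 (SE 0.76, adjusted p = 0.000132). The libraries of a group differed several-fold, and the HET rise was 6.09 without 0 h replicate 1, 4.88 without 0 h replicate 3 and 4.87 without 3 h replicate 2, while the KO rise was 5.45 without 3 h replicate 1 and 4.04 without 3 h replicate 2. *Cd6* rose at 3 h by 3.54 (SE 0.32, adjusted p = 7e-08) in HET and 2.81 (SE 0.30, adjusted p = 1.2e-06) in KO, and *Sla*, the adaptor that lowers surface TCR, by 2.52 (SE 0.25, adjusted p = 2.4e-07) and 1.65 (SE 0.23, adjusted p = 4.21e-05). In HET 3 h replicate 3 *Sla* stood at 15934, above 6349 and 7094 in the others, and its rise was 2.11 without that library. *Ptpn6* rose at 24 h by 1.28 (SE 0.22, adjusted p = 0.000121) in HET and 2.01 (SE 0.20, adjusted p = 2.53e-07) in KO. *Pag1*, the membrane anchor of CSK, fell at 24 h against 0 h by 1.64 in HET and 1.56 in KO.

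From 3 to 24 h, a step between libraries of the same sex, 8 members rose and 10 fell in HET, where 43.6% of all genes were called (21.3% up, 22.3% down), and 11 rose and 11 fell in KO, where 37.1% were called (18.4% and 18.7%). *Cd2*, *Prkcq* and *Rasgrp1* rose in both genotypes, by 3.74, 1.09 and 1.04 in HET and 2.88, 1.13 and 1.13 in KO. *Pag1*, *Itpr1*, *Nfatc1* and *Orai1* fell in both, by 1.76, 1.59, 1.47 and 1.55 in HET and 1.87, 1.31, 1.49 and 0.89 in KO. *Cblb* fell by 0.93 in HET and rose by 0.94 in KO. The HET rise of *Cd2* was 4.79 without 3 h replicate 3, 3.07 without 3 h replicate 1 and 5.36 without the 3 libraries that stand apart, and its KO rise was 3.93 with lane as a covariate. *Dgka* rose by 1.00 in HET and 0.85 in KO (the latter lost without KO 3 h replicate 2, 0.76), and *Syk* fell by 1.11 in KO.

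Other changes with time were these. *Malt1*, the protease partner of BCL10, rose in HET by 1.05, 0.86 and 1.55 at 3, 24 and 48 h and in KO by 1.13 and 0.72 at 3 and 48 h, the last lost without KO 48 h replicate 1 (0.53). At 48 h HET held 1331, 1186 and 1671 and KO 1401, 1047 and 829.6. *Nfatc3* rose by 0.90 at 3 h and 1.51 at 48 h in HET. *Nfatc2* was called at 3 h in KO (0.98), a call lost with lane as a covariate. *Dgkz*, the second diacylglycerol kinase of the list, rose by 1.39 in HET and 0.94 in KO at 48 h, and *Csk*, which encodes the kinase that holds LCK inactive, by 0.92 in HET and 0.73 in KO, the latter lost without KO 48 h replicate 2 (0.48). *Cd5* stood 4.26 and 6.57 above its 0 h level on the log2 scale at 24 and 48 h in HET and 4.66 and 4.93 in KO, where the value at 24 h was 3.78 without 24 h replicate 3. In HET the values without 0 h replicate 1 were 4.85 and 7.16, and without 0 h replicate 3 they were 3.65 and 5.96. *Cd6* rose by 3.18 and 3.44 in HET and 2.92 and 2.38 in KO at these times, and *Zap70* by 2.13 at 24 h in HET and 1.78 in KO. *Sla* rose by 2.18 at 48 h in HET and 1.90 at 24 h in KO, and *Ptprc* by 1.70 at 3 h in HET. *Ppp3ca* rose at 48 h in both genotypes, by 0.89 in HET and 0.89 in KO.

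Across all 4 times, the 22 members never called between genotypes had log2 changes from -0.79 to 1.25, the ends of which were *Cd5* at 48 and 24 h. Their median SE was 0.22, and the widest 95% interval reached 1.68 on either side of its value, so that a missing call does not show equal levels. Groups without overlap numbered 24 of 39 members at 0 h, 10 at 3 h, 9 at 24 h and 9 at 48 h, against 40.5%, 28.2%, 33.9% and 23.3% of all genes tested.

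Of 80 other genes of the same pathway, 79 were tested, and 17 were called between genotypes at 0 h (13 higher and 4 lower in KO), 6 at 3 h (4 and 2), 7 at 24 h (4 and 3) and 12 at 48 h (2 and 10). These are 21.5%, 7.59%, 8.86% and 15.2% of the 79, near or below the 22.1%, 9.18%, 12.5% and 13.1% of all genes except at 48 h. The largest changes at 0 h were of *Cd226*, an activating receptor (mean 11.1 in HET and 50.7 in KO, log2 change 2.04, adjusted p = 0.00292), and of *Dok2*, a docking protein that restrains RAS (1010.5 and 2693, 1.43, adjusted p = 0.000977). *Gab2*, *Tespa1* and *Rasgrp2* followed, each with a log2 change of 0.97 to 1.02. At 3 h *Cd226* (1.68, adjusted p = 0.031), *Dok2* (1.35, adjusted p = 0.00534), *Sit1* (1.14, adjusted p = 0.00353) and *Rasgrp2* (0.88, adjusted p = 0.0137) were higher in KO and *Slamf1* was lower (-1.36, adjusted p = 0.0346). At 24 h *Gab2*, a GRB2-associated adaptor, led with 1.58, adjusted p = 0.00103, followed by *Vav3* (1.17, adjusted p = 0.00148), the diacylglycerol kinase gene *Dgkd* (1.00, adjusted p = 0.00551), *Ndfip1* (0.72, adjusted p = 0.0256) and *Akt1* (-0.62, adjusted p = 0.0105). At 48 h *Gab2* was again higher (2.02, adjusted p = 0.000131), while *Ubash3b* (-1.45, adjusted p = 0.0379), *Orai2* (-1.38, adjusted p = 0.00143), *Lime1* (-1.06, adjusted p = 0.00779) and *Slamf6* (-0.97, adjusted p = 0.0189) were lower.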

How the data were processed

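Bulk RNA was sequenced from sorted Thy1.2+ CD44- thymocytes of 25 mice, 1 library per mouse. According to the labels and the methods of the study, libraries were made with a stranded poly(A) kit, sequenced as single-end reads, trimmed with Trimmomatic 0.36 and quantified with RSEM 1.2.31 and STAR 2.5.2a on Ensembl 86 (GRCm38). The deposited values are the authors' normalized counts, a signal per gene obtained by dividing each count by the DESeq2 1.18.1 size factor of its library. They were whole multiples of 1 step per library (100% of values whole within 0.001), so the estimated counts had been rounded by the authors, and reads were recovered from them for edgeR and DESeq2 alternatives. In 2 of the 25 libraries the step was near 1, so their depth rests on that step.

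A filter on low values (mean of 10 or more) left 14141 genes, which were analysed with limma 3.58.1 (R 4.3.3) on log2(value + 1), with 8 group means and a mean-variance trend, and p-values were adjusted by Benjamini-Hochberg within each comparison. Fold changes of low genes are understated by the pseudocount. Alternatives were a pseudocount of 5, no filter on low values, a common total, lane as a covariate, the replicate number as a block, edgeR 4.0.16, DESeq2 1.42.0, leaving out 3 libraries that stand apart, and leaving out each library. The fits were also run on simulated counts, drawn without effects of lane, sex or libraries that stand apart. Those runs do not bear on such limits. Each library is a separate mouse, all from 1 experiment. Deposited genes carry Ensembl IDs, and *Syk* was matched through its synonym Sykb in the gene names used. Genes were named by rule: every member called between genotypes, the 8 largest called changes of each time comparison, and the 5 largest among other pathway genes. Members, lists, tests and the 3 libraries left out were chosen with earlier results of these data known. Other members and the marker genes given beside a result were named after their values were seen. Promoter windows came from RefSeq (GRCm38.p6).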

Additional observations from a re-analysis of the deposited data

Results flagged for a closer look

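*Pag1*, the membrane anchor of CSK, had 1 library apart from the others of its group. The KO libraries at 0 h held 10899.7, 10893, 10548 and 12690.4, and the gap from the highest to the next, divided by the range, was 0.836, above Dixon's 95% critical value for 4 values. Such a test was run on 40 groups of 4, and chance flags about 1 group in 20.

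The change of *Cblb* from 0 to 24 h differed between genotypes by 2.40 on the log2 scale (limma interaction, adjusted p = 0.000789). It fell by 0.82 in HET and rose by 1.57 in KO, and the call was lost with lane as a covariate (1.69, adjusted p = 0.143).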

How the results depend on the processing

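Of 29 calls between genotypes, 14 were kept in every fit without 1 library and 11 under every other alternative. With lane as a covariate 15 were lost, without a filter on low values 8, and without the 3 libraries that stand apart 5. DESeq2 lost 0 and edgeR 1. With lane as a covariate, 1 member was called between genotypes at 0 h and 4 at 48 h, 3, 15 and 11 at 3, 24 and 48 h against 0 h in KO, and 0 in the interaction at 24 h. Without a filter 4 members were called between genotypes at 48 h. In the interaction at 48 h DESeq2 called 3 members, and without the 3 libraries that stand apart 3 were called at 24 h and 3 at 48 h. With lane, 3 changes against 0 h in HET turned direction, namely *Stim1* at 3 h (0.10), *Ubash3a* at 3 h (0.026) and *Cblb* at 24 h (0.058); the cause was not tested.

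With each library left out in turn, 8 to 11, 1 to 3, 3 to 6 and 3 to 10 members were called between genotypes at 0, 3, 24 and 48 h. The count was 1 at 3 h without KO replicate 1 or 2, 3 at 24 h without HET replicate 3 or KO replicate 2, and at 48 h 3 and 5 without HET replicates 2 and 3 and 4 without KO replicate 1 or 3. Against 0 h at 3, 24 and 48 h the ranges were 17 to 20, 22 to 26 and 25 to 29 in HET and 12 to 18, 26 to 29 and 19 to 27 in KO, and from 3 to 24 h they were 16 to 18 and 19 to 22. In the interaction they were 0 to 0 at 3 h, 1 to 1 at 24 h and 0 to 2 at 48 h.

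Same-numbered samples were different mice, the correlations of their deviations ran from -0.197 to 0.205, and the numbers do not pair the libraries. With the replicate block 10, 3, 6 and 7 members were called between genotypes at 0, 3, 24 and 48 h, and 14 at 3 h against 0 h in KO. The members never called had a median SE of 0.22 on the log2 scale, which limits what 3 mice per group can show. Lane cannot be told apart from genotype at 0 h. Nor can it be told apart from time in KO against 0 h, or in HET at 3 and 24 h against 0 h.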
